A study of Rhodotorula toruloides with 9 samples.

Results

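A set of 47 genes of R. toruloides had low transcript abundance on d-galacturonic acid (d-galUA) and high abundance on both d-glucose (d-glc) and glycerol. They were chosen by mean FPKM (mapped fragments of a gene per unit of its length and of the library's depth) among 8578 gene models, of which the 92 with a CAND identifier were not eligible and the others carry a protein number. A gene was taken when its means on d-glc and on glycerol were both at least 10 FPKM, were both at least 3-fold the d-galUA mean, and lay less than 2-fold apart. Both means reached 10 FPKM in 5409 numbered genes, 79 of these met the 3-fold limit as well, and 47 of the 79 met all 3 limits. None of the CAND models met the limits either. Because the rule used every contrast among the 3 carbon sources and all 9 libraries, the levels of these 47 genes on the carbon sources are a description. Counts of them past a test are given only beside the share of all genes, and nothing is read from them.

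R. toruloides is a red, oil-accumulating basidiomycete yeast, and strain IFO0880 was grown in liquid yeast nitrogen base with d-galUA, d-glc or glycerol as the carbon source. By the labels and the paper's results section, whole cells were sampled in log phase. The paper's methods instead place the harvest at the onset of stationary phase. The mRNA was sequenced to find genes that respond to d-galUA. All groups are the same strain with no added allele or agent. By label there are 3 libraries of d-galUA, 4 of d-glc and 2 of glycerol. The rule places the library labelled d-glc 4 with glycerol, so each carbon source has 3 libraries here, which the paper describes as biological replicates.

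d-galUA is the sugar acid that forms the backbone of pectin in plant cell walls. Fungi that grow on it take it up with sugar transporters of the plasma membrane and break it down through a reductive pathway to pyruvate and glycerol, whereas d-glc enters glycolysis directly and glycerol joins it at the triose phosphates. Names could be looked up for 2 of the 47 genes, since the copy of the paper's gene table used here is partial and holds mostly the genes most abundant on d-galUA. The 1 of these with a named ortholog, RTO4_16324, belongs to the synthesis of thiamine. Thiamine pyrophosphate is the cofactor of pyruvate dehydrogenase, pyruvate decarboxylase and transketolase. In S. cerevisiae it is assembled from a thiazole, made by Thi4, and a pyrimidine, made by the Thi5 family, and both steps are repressed when thiamine is plentiful.

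Depth ranged from 33.6 to 36.9 M mapped reads (M, mega) on d-galUA, from 28.5 to 51.9 in d-glc replicates 1 to 3, and from 25.8 to 36.6 in the glycerol group. The library labelled d-glc 4 is the shallowest at 25.8. Over all genes its log2 values correlated with glycerol replicates 1 and 2 at r = 0.986 and 0.988, and with d-glc replicates 1 to 3 at r = 0.871 to 0.872, as a description across genes, which are not independent. Its level was nearer the mean of glycerol replicates 1 and 2 in 36 of the 47 genes, and nearer the d-glc mean in the other 11. A listed value of 0 can be a failed estimate, since 31 gene models had a 0 in 1 library and at least 10 FPKM in another of its group. RTO4_11260 and RTO4_9949 of the set are 2 of those 31. Whether the total mRNA per cell differed between carbon sources was not tested, and lower abundance of a gene cannot be told apart from a larger amount of other mRNA.

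Together the 47 genes took 0.130, 0.127 and 0.126% of all transcripts (their share of the summed TPM, abundance scaled to one total per library) in the d-galUA libraries. They took 0.688, 0.898 and 0.850% in d-glc replicates 1 to 3. In glycerol replicates 1 and 2 the share was 0.912 and 0.872%, and in the library labelled d-glc 4 it was 0.973%. The mean share was 0.128 ± 0.00191% for d-galUA, 0.812 ± 0.110% for d-glc and 0.919 ± 0.0510% for the glycerol group (SD, n = 3 libraries each). The median gene of the set had a mean of 7.57 FPKM on d-galUA, which is the 25.7th percentile of the numbered genes. On d-glc and glycerol the medians were 57.0 and 49.3 FPKM, at percentiles 79.1 and 75.7. On d-galUA 16 of the genes had a mean under 5 FPKM and 2 had at least 100, compared with 13 and 12 genes of at least 100 FPKM on d-glc and glycerol.

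**Figure D1:**
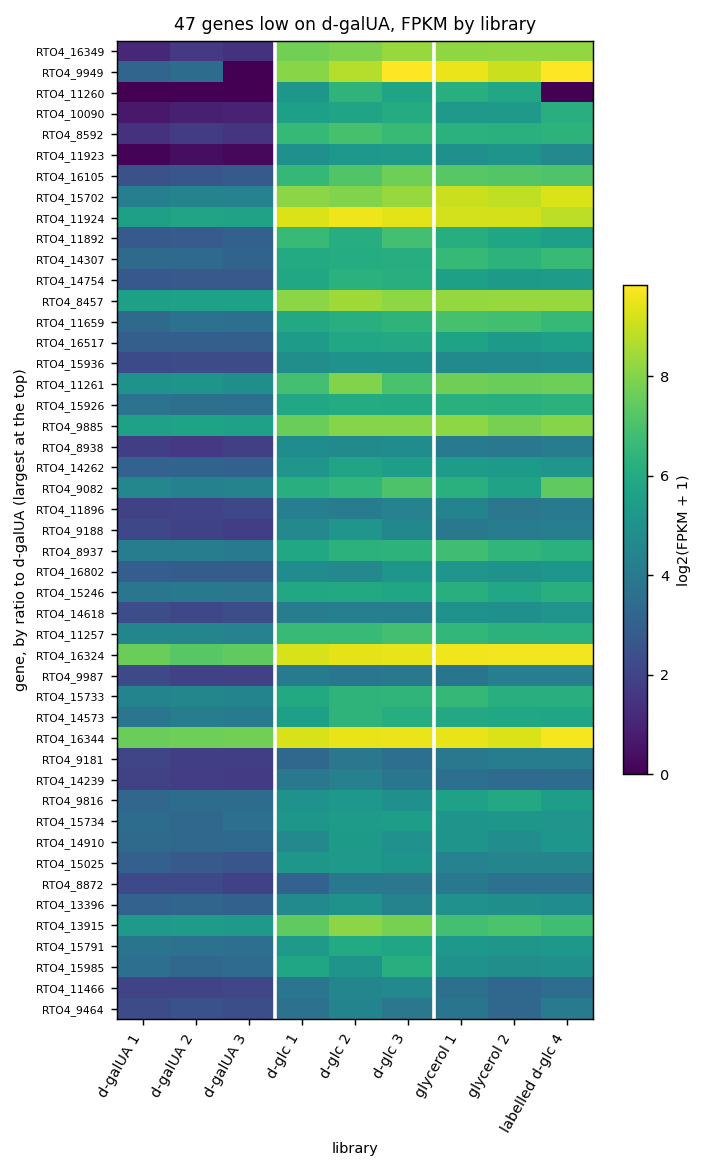
FPKM of the 47 genes on the log2(FPKM + 1) scale, with 1 row per gene and 1 column per library. Rows are sorted by the ratio of the lower of the d-glc and glycerol means to the d-galUA mean, with 1 FPKM added to each. The d-galUA columns are low in every row, and RTO4_11260 and RTO4_9949 show the cells listed at 0.

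The ratio of the lower of the d-glc and glycerol means to the d-galUA mean had a median of 4.71 and ran from 3.00 to 177 in 46 genes. RTO4_11260, listed at 0 in all d-galUA libraries, has no ratio. The ratio was at least 10 in 8 genes, from 5 to under 10 in 13 and from 3 to under 5 in 25, of which 16 were under 4. For all 5409 numbered genes with both means of at least 10 FPKM the median of this ratio was 0.883. The libraries of 46 genes did not overlap, every d-galUA library being below all 6 others, and the gap between the highest d-galUA library and the lowest other library ran from 1.97-fold (RTO4_9464) to 99.7-fold (RTO4_16349) with a median of 3.73-fold. The exception was RTO4_11260, which is listed at 0 in the library labelled d-glc 4. Of all 8479 gene models tested, 14.3% had every d-galUA library below the other 6.

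**Figure D2:**
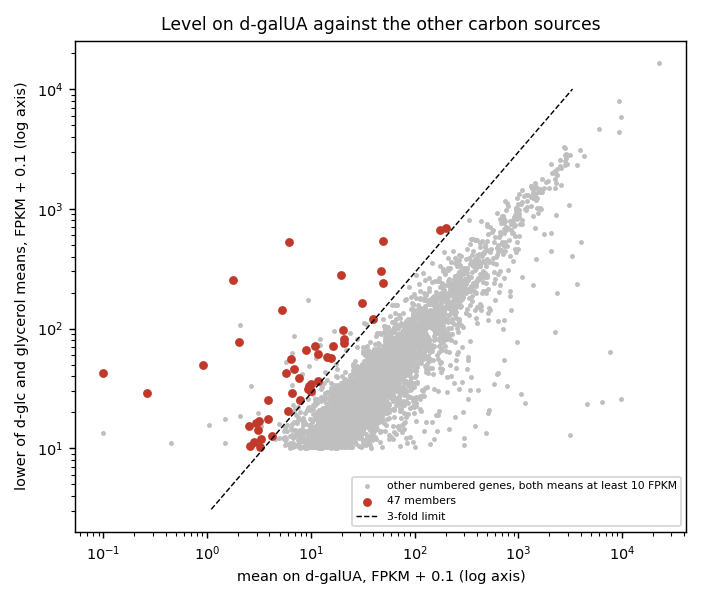
Mean FPKM on d-galUA (x axis) against the lower of the d-glc and glycerol means (y axis) for the numbered genes with at least 10 FPKM on both, plotted as FPKM + 0.1 on log axes, with the 47 genes in colour and the 3-fold limit as a dashed line. The genes of the set lie above the line, and the grey points above it are the 32 genes whose d-glc and glycerol means lay at least 2-fold apart.

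limma on log2(FPKM + 1), with Benjamini-Hochberg adjustment over all gene models tested, put all 47 genes past an adjusted p of 0.05 in both contrasts of d-galUA. The shares of all genes called lower on d-galUA were 24.1% against glycerol, 25.8% against d-glc and 10.7% against both, and 11.7% were called higher on d-galUA than on both. With the libraries grouped as labelled, the shares called lower were 8.6% against glycerol and 10.7% against d-glc. Because the rule chose the genes by these contrasts, nothing is read from their count. The median log2 fold change of the 47 genes was -2.20 against glycerol and -2.29 against d-glc, while over all genes it was 0.03 and -0.00.

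RTO4_16324, the ortholog of S. cerevisiae THI4, encodes the enzyme that makes the thiazole part of thiamine, in yeast by giving up a sulfur of its own active site. It lies on the plus strand of scaffold 9 at 96642 to 99152 in version 4 of the genome. Its FPKM was 197, 155 and 171 on d-galUA, and 605, 692 and 702 on d-glc. In glycerol replicates 1 and 2 it was 779 and 811, and in the library labelled d-glc 4 it was 812. The highest d-galUA library was thus well below the lowest of the other 6. The mean levels were 175 ± 21.3, 666 ± 53.2 and 801 ± 18.6 FPKM in that order of carbon sources (SD, n = 3 libraries each), so that d-glc was 3.82-fold and glycerol 4.58-fold above d-galUA. On glycerol no gene of the set had a higher mean.

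Another gene of thiamine precursor synthesis, in the partial gene table used here, is RTO4_11147 of the Thi5 family, which makes the pyrimidine part in yeast. It is not in the set, and lies on the minus strand of scaffold 15 at 191338 to 193074. Its FPKM was 453, 442 and 445 on d-galUA, and 1425, 1591 and 1362 on d-glc. It was 354 and 436 in glycerol replicates 1 and 2 and 420.0 in the library labelled d-glc 4. RTO4_11147 was therefore high on d-glc alone, with its lowest d-galUA library (442) close above the highest of the glycerol group (436), whereas RTO4_16324 was high on both d-glc and glycerol. For RTO4_11147 limma gave a log2 fold change, d-galUA against d-glc, of -1.70 (SE 0.11, adjusted p = 6.29e-07), and its difference from glycerol was 0.15 (SE 0.11, adjusted p = 0.269). Grouped as labelled, the difference from d-glc was -1.25 with an adjusted p of 0.0686. Its mean FPKM was 447 ± 5.84 with d-galUA, 1459 ± 119 with d-glc and 403 ± 43.6 with glycerol (SD, n = 3 libraries each).

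The set's most abundant genes on d-glc were RTO4_11924, RTO4_16344, RTO4_16324 and RTO4_9949. RTO4_16344, on the minus strand of scaffold 9 at 131667 to 133868, is the other gene of the set in the copy of the paper's gene table used here, where it has no ortholog. It had 191, 199 and 213 FPKM on d-galUA, 595, 724 and 741 on d-glc, 716 and 616 in glycerol replicates 1 and 2, and 828 in the library labelled d-glc 4. It was the most abundant gene of the set on d-galUA, where its mean of 201 ± 11.3 FPKM compared with 687 ± 79.8 for d-glc and 720.1 ± 106 for glycerol (SD, n = 3 libraries each). Its model overlaps that of RTO4_16343 by 17 bp. The remaining genes of the set carry no gene name in the sources used here, and are described by number and position.

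RTO4_11924 (scaffold 2, plus strand, 38444 to 40817) had 47.1, 51.8 and 49.3 FPKM on d-galUA, 637, 763 and 689 on d-glc, 572 and 585 in glycerol replicates 1 and 2, and 462 in the library labelled d-glc 4. Its mean of 696 ± 63.4 FPKM on d-glc was the highest of the set there, and 14.1-fold the d-galUA mean of 49.4 ± 2.31, while the glycerol mean of 539.8 ± 68.0 was 10.9-fold above it (SD, n = 3 libraries each). RTO4_15702 (scaffold 8, minus strand, 29500 to 31086) reached a like level on glycerol, with 529 and 475 FPKM in glycerol replicates 1 and 2 and 616 in the library labelled d-glc 4, compared with 277, 249 and 316 on d-glc and 18.2, 20.1 and 19.6 on d-galUA. The 3 groups of RTO4_15702 did not overlap one another, in the order d-galUA, d-glc and glycerol. Its means were 19.3 ± 1.02, 280.5 ± 33.4 and 539.9 ± 71.4 FPKM (SD, n = 3 libraries each).

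RTO4_8457 (scaffold 1, plus strand, 213359 to 214966) varied least on d-galUA, at 47.4, 47.8 and 47.9 FPKM. On d-glc it had 274, 338 and 288 FPKM, in glycerol replicates 1 and 2 308 and 319.6, and in the library labelled d-glc 4 316. Its d-glc and glycerol libraries overlapped, and the means of 300.1 ± 33.9 and 315 ± 5.88 FPKM (SD, n = 3 libraries each) were 6.29-fold and 6.59-fold the d-galUA mean. RTO4_9885 (scaffold 11, plus strand, 494782 to 496298) had 48.5, 51.1 and 47.8 FPKM on d-galUA, 197, 264 and 263 on d-glc, 287 and 225 in glycerol replicates 1 and 2, and 259 in the library labelled d-glc 4. It had about the same level as RTO4_8457 on d-galUA and lay 4.92-fold and 5.23-fold higher on d-glc and glycerol.

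The largest ratios belonged to genes of low mean FPKM on d-galUA. RTO4_16349 (scaffold 9, minus strand, 141526 to 143466) had 1.19, 2.11 and 1.74 FPKM on d-galUA, 210.3, 243 and 316 on d-glc, 295 and 297 in glycerol replicates 1 and 2, and 299 in the library labelled d-glc 4. Its means of 257 ± 54.1 on d-glc and 297 ± 1.95 on glycerol were 153-fold and 177-fold the d-galUA mean of 1.68 ± 0.463 FPKM (SD, n = 3 libraries each). Over the whole span of the model that d-galUA level is at most 348 reads in the 3 libraries together. RTO4_11923 (scaffold 2, minus strand, 37251 to 38623) had 0.0651, 0.277 and 0.145 FPKM on d-galUA, 29.7, 36.9 and 37.6 on d-glc, 29.6 and 33.1 in glycerol replicates 1 and 2, and 23.4 in the library labelled d-glc 4. Its ratios of 214 on d-glc and 177 on glycerol rest on at most 24.0 d-galUA reads, so they are less certain than those of RTO4_16349.

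RTO4_10090 (scaffold 12, minus strand, 34875 to 37390) had 0.603, 0.830 and 0.983 FPKM on d-galUA, 45.9, 52.3 and 65.6 on d-glc, 37.8 and 38.9 in glycerol replicates 1 and 2, and 71.2 in the library labelled d-glc 4, which stood apart from the other glycerol libraries. The ratios were 67.8 on d-glc and 61.2 on glycerol. RTO4_8592 (scaffold 1, minus strand, 554043 to 556725) had 1.61, 2.30 and 1.90 FPKM on d-galUA, 94.4, 124 and 96.6 on d-glc, 76.5 and 74.6 in glycerol replicates 1 and 2, and 80.2 in the library labelled d-glc 4. All d-glc libraries of RTO4_8592 were above all of the glycerol group, and the ratios to d-galUA were 54.2 and 39.8.

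RTO4_16105 (scaffold 8, plus strand, 959351 to 960739) had 4.45, 5.16 and 5.83 FPKM on d-galUA, 92.1, 140.1 and 202 on d-glc, 152 and 144 in glycerol replicates 1 and 2, and 136 in the library labelled d-glc 4. The d-glc libraries spread on both sides of the glycerol libraries, and the ratios to d-galUA were almost equal, at 28.2 and 28.0. Its model overlaps RTO4_16106 on the opposite strand. RTO4_11892 (scaffold 18, minus strand, 306166 to 307556) had 5.93, 6.01 and 7.27 FPKM on d-galUA, 101, 68.5 and 117 on d-glc, 68.2 and 53.6 in glycerol replicates 1 and 2, and 46.1 in the library labelled d-glc 4. It was 14.9-fold above d-galUA on d-glc and 8.74-fold on glycerol, with each d-glc library above each glycerol library, the nearest being 68.5 and 68.2 FPKM.

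RTO4_9949 and RTO4_11260 hold the values of 0. RTO4_9949 (scaffold 11, plus strand, 651714 to 653081) had 8.14, 10.2 and 0 FPKM on d-galUA, 266, 427 and 889 on d-glc, 752 and 530.1 in glycerol replicates 1 and 2, and 907 in the library labelled d-glc 4. Even the d-galUA libraries above 0 were far below every other library, and the d-glc and glycerol libraries overlapped, with the d-glc ones the more spread. RTO4_11260 (scaffold 15, minus strand, 471192 to 473300) is listed at 0 in all d-galUA libraries, at 36.1, 82.3 and 52.7 FPKM on d-glc, at 70.6 and 57.8 in glycerol replicates 1 and 2, and at 0 in the library labelled d-glc 4. Since that last library is at 0 while its companions are above 50 FPKM, a 0 of this gene may be a failed estimate on d-galUA as well.

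**Figure D3:**
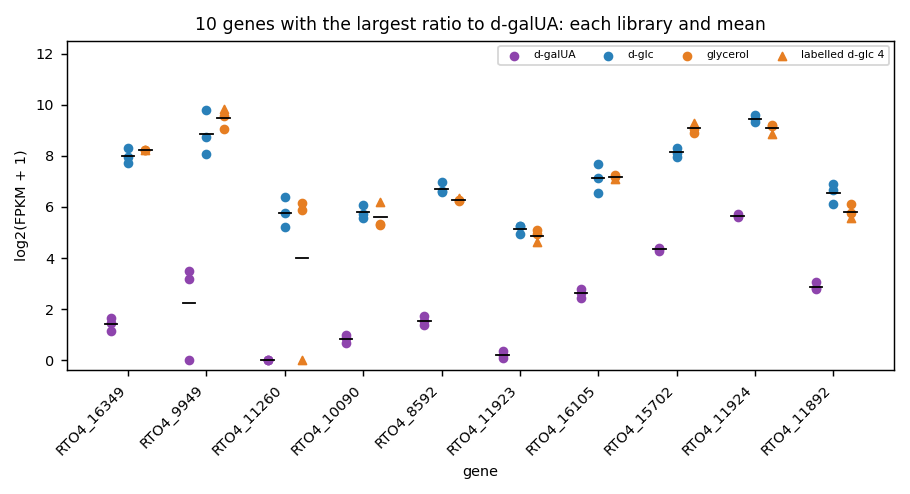
log2(FPKM + 1) of the 10 genes with the largest ratio on the (FPKM + 1) scale, with 1 point per library, short bars for the means of these log values and triangles for the library labelled d-glc 4. RTO4_16349 has the widest distance, from at most 2.11 FPKM on d-galUA to at least 210.3 FPKM elsewhere.

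Within the set, 8 genes (17.0%) were direct neighbors of another, in 4 pairs on scaffolds 1, 2, 8 and 15. RTO4_11923 and RTO4_11924 lie head to head on opposite strands of scaffold 2, and their start regions overlap by 180 bp, so without strand their reads over that stretch cannot be told apart. Their levels differed widely in spite of this, at 0.162 ± 0.107 and 49.4 ± 2.31 FPKM on d-galUA and 34.7 ± 4.38 and 696 ± 63.4 FPKM on d-glc (SD, n = 3 libraries each). RTO4_11260 and RTO4_11261 (scaffold 15, plus strand, 473528 to 474406) lie head to head with 227 bp between them. RTO4_11261 had 31.3, 32.6 and 28.9 FPKM on d-galUA, 118, 247 and 128 on d-glc, 208 and 198 in glycerol replicates 1 and 2, and 199 in the library labelled d-glc 4. It was detected in every library, those in which RTO4_11260 is listed at 0 included.

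RTO4_8937 and RTO4_8938 stand one behind the other on scaffold 1 (minus strand), spanning 1362223 to 1362868 and 1363682 to 1366464, with 813 bp between them. RTO4_8937 had 16.4, 17.1 and 15.7 FPKM on d-galUA, 56.5, 78.0 and 80.2 on d-glc, 111 and 86.4 in glycerol replicates 1 and 2, and 75.8 in the library labelled d-glc 4. RTO4_8938 was less abundant, at 2.53, 2.12 and 2.63 FPKM on d-galUA, 26.7, 24.0 and 26.2 on d-glc, 15.4 and 14.2 in glycerol replicates 1 and 2, and 16.5 in the library labelled d-glc 4. The glycerol and d-glc libraries of RTO4_8937 overlapped, while every glycerol library of RTO4_8938 was below every d-glc library.

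RTO4_15733 and RTO4_15734 abut with 0 bp between their models on scaffold 8 (minus strand), spanning 102817 to 104292 and 104293 to 105609. RTO4_15733 had 20.6, 22.0 and 20.5 FPKM on d-galUA, with means of 76.2 ± 13.2 for d-glc and 78.0 ± 13.1 for glycerol (SD, n = 3 libraries each). RTO4_15734 had 9.97, 8.72 and 11.2 FPKM on d-galUA, with means of 40.4 ± 4.40 on d-glc and 34.2 ± 1.90 on glycerol. RTO4_15734 was thus at about the same ratio above d-galUA, 4.06-fold on d-glc and 3.44-fold on glycerol, as RTO4_15733 at 3.63-fold and 3.71-fold.

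Counted within 5 gene models, 13 genes of the set (27.7%) had another member nearby, and 401 other numbered genes (4.75%) had a member as near. Examples are RTO4_16344 and RTO4_16349 on scaffold 9, and RTO4_11257 with the RTO4_11260 and RTO4_11261 pair on scaffold 15. The set was spread over 15 of the 21 scaffolds. Its median span of 1834 bp compared with 1783 bp for all numbered genes and 1962 bp for those of at least 10 FPKM on d-glc and glycerol. On the plus strand were 18 genes (38.3%, compared with 49.9% of all numbered genes), and 12 (25.5%, compared with 24.3%) overlapped another gene model. No test was made of these shares.

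At the edge of the rule, RTO4_9464 had the smallest ratio of 3.00, with 3.85, 4.52 and 4.12 FPKM on d-galUA, 12.0, 20.7 and 13.9 on d-glc, 13.1 and 8.90 in glycerol replicates 1 and 2, and 15.6 in the library labelled d-glc 4. RTO4_15985 followed at 3.01 and RTO4_13915 at 3.06. RTO4_13915 had 38.4, 41.3 and 39.1 FPKM on d-galUA, 172, 275 and 224 on d-glc, 118 and 132 in glycerol replicates 1 and 2, and 113 in the library labelled d-glc 4, so its place in the set was decided by glycerol. Just outside were RTO4_12979 at 2.98, RTO4_14123 at 2.95 and RTO4_11900 at 2.94. The 19 genes of the set not picked by the rule for naming genes (given below) had means of 2.48 to 20.8 FPKM on d-galUA. Their means were 12.0 to 104 FPKM on d-glc and 10.3 to 98.7 on glycerol. The ratios of these 19 were 3.12 to 7.55 with a median of 4.70, and some of them appear in other passages.

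Between glycerol and d-glc, which the rule holds to under 2-fold, the ratio of means had a median of 0.995 in the set (0.511 to 1.92) and of 1.00 over the numbered genes with both means of at least 10 FPKM. By mean, 23 genes were higher on glycerol and 24 on d-glc, and 20 lay within 1.2-fold. limma called 7 genes (14.9%) higher on glycerol and 13 (27.7%) lower, beside 26.7% and 26.7% of all genes tested. With groups as labelled it called 0 and 0 of the 47 genes, where 1 and 0 of all 8479 genes were called, and with the replicate number as a block it called 4 and 9, beside 20.6% and 22.5% of all genes. No other library shares the replicate number of the library labelled d-glc 4. The block takes up that library whole, so glycerol rests on its replicates 1 and 2 in that fit. Every glycerol library was above every d-glc library in 8 genes and below in 14, beside 28.1% and 28.2% of all genes. As the rule limits this contrast, these counts are a description, and the median log2 fold change was -0.11 in the set and 0.02 over all genes.

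RTO4_15702 and RTO4_14618 had the largest ratios of glycerol to d-glc, 1.92 and 1.80. RTO4_14618 had 4.00, 3.40 and 4.03 FPKM on d-galUA, 16.7, 17.9 and 18.0 on d-glc, 31.6 and 29.4 in glycerol replicates 1 and 2, and 33.7 in the library labelled d-glc 4. RTO4_11659, RTO4_9816 and RTO4_9181 followed at 1.55, 1.55 and 1.42. At the other end were RTO4_11466 at 0.511, RTO4_13915 at 0.541, RTO4_15985 at 0.554, RTO4_15025 at 0.572 and RTO4_11892 at 0.586. RTO4_15985 had 11.0, 8.74 and 9.90 FPKM on d-galUA, 55.2, 32.9 and 73.1 on d-glc, 31.4 and 28.0 in glycerol replicates 1 and 2, and 29.9 in the library labelled d-glc 4. Its lowest d-glc library was close to the glycerol libraries, whereas the d-glc and glycerol groups of RTO4_14618 were far apart.

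**Figure D4:**
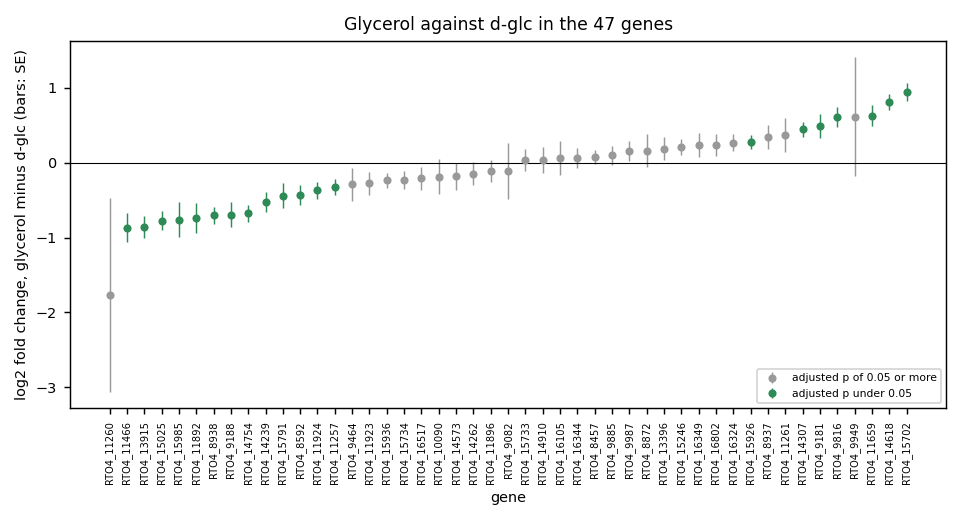
log2 fold change of glycerol against d-glc for each of the 47 genes, as points with the standard error of the limma fit (3 libraries a group), ordered by value. Green marks an adjusted p under 0.05, which no gene reached with groups as labelled, with 7 genes to the glycerol side, up to 0.94 for RTO4_15702, and 13 to the d-glc side, down to -0.87 for RTO4_11466.

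The median spread within a carbon source was larger in the set than in numbered genes with both means of at least 10 FPKM. The rule chose genes with low d-galUA means, and the others were not matched for level, so nothing is read from this difference. The median coefficient of variation over 3 libraries was 7.97% on d-galUA, 17.7% on d-glc and 10.5% in the glycerol group, compared with 4.90, 14.6 and 8.52% for all numbered genes with both means of at least 10 FPKM. On d-glc, replicate 1 was below replicate 2 in 40 of the 47 genes (70.4% of the numbered genes with both means of at least 10 FPKM) and below replicate 3 in 39 (62.9%). RTO4_9949, at 266 FPKM in replicate 1 and 889 in replicate 3, is an example.

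The genes beside the set were taken by position and not for their levels, although any that met the limits of the rule are members and so left out. Of the 86 nearest gene models before and after a member that are no members themselves, 85 were tested. limma called 38 of them (44.7%) lower on d-galUA than on d-glc and 30 (35.3%) lower than on glycerol, beside the 25.8% and 24.1% of all genes above. Lower than on both were 20 (23.5%, beside 10.7%), and 8 were higher on d-galUA than on both (9.41%, beside 11.7%). With groups as labelled the counts were 19 against d-glc, 17 against glycerol and 14 against both, beside 10.7%, 8.6% and 5.58% of all genes. Their median log2 fold change was -0.21 against d-glc and -0.04 against glycerol. Without the neighbors that overlap a member, the counts were 32 (43.8%), 25 (34.2%) and 16 (21.9%) of 73. In 25 of the 85 (29.4%, beside 14.3%) every d-galUA library was below the other 6. Between glycerol and d-glc, 23 neighbors (27.1%) were higher on glycerol and 31 (36.5%) lower, beside 26.7% of all genes in either direction. Whether neighboring genes in general change together on these carbon sources was not tested.

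RTO4_8873, RTO4_16348 and RTO4_16350 were picked as the 3 neighbors with the most negative mean log2 fold change among those called lower on both. Their values and p-values restate that choice. RTO4_8873 (scaffold 1, minus strand, 1200653 to 1201930) abuts RTO4_8872 of the set, with 0 bp between the models, and the pair lies tail to tail. It had 9.13, 7.35 and 8.05 FPKM on d-galUA, 126, 175 and 146 on d-glc, 39.2 and 37.0 in glycerol replicates 1 and 2, and 47.7 in the library labelled d-glc 4. The 3 groups did not overlap, and the d-glc and glycerol means lay over 2-fold apart, which kept RTO4_8873 out of the set. Its log2 fold change by limma was -4.02 against d-glc (SE 0.14, adjusted p = 8.29e-09) and -2.20 against glycerol (SE 0.14, adjusted p = 9.05e-07). RTO4_8872 itself had means of 3.25 ± 0.432 FPKM on d-galUA, with d-glc 12.0 ± 3.96 and with glycerol 13.0 ± 1.42 (SD, n = 3 libraries each).

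RTO4_16348 and RTO4_16350 flank RTO4_16349 on scaffold 9, all on the minus strand, at distances of 121 and 835 bp. RTO4_16348 (138859 to 141404) had 0.657, 0.518 and 0.454 FPKM on d-galUA, 4.51, 3.95 and 4.29 on d-glc, 15.8 and 13.8 in glycerol replicates 1 and 2, and 21.3 in the library labelled d-glc 4. Its log2 fold change by limma was -3.52 against glycerol (SE 0.16, adjusted p = 5.07e-08) and -1.77 against d-glc (SE 0.16, adjusted p = 8.04e-06). RTO4_16350 (144302 to 146236) had 13.4, 14.8 and 12.4 FPKM on d-galUA, 38.7, 39.8 and 51.1 on d-glc, 88.4 and 82.0 in glycerol replicates 1 and 2, and 91.3 in the library labelled d-glc 4. Its log2 fold change by limma was -2.61 against glycerol (SE 0.12, adjusted p = 7.58e-08) and -1.60 against d-glc (SE 0.12, adjusted p = 2.57e-06). All 3 adjacent genes were lowest on d-galUA, as the choice of RTO4_16349 by the rule and of its flanking genes by their calls required. RTO4_16349 was about equal on d-glc and glycerol, and both flanking genes were higher on glycerol.

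**Figure D5:**
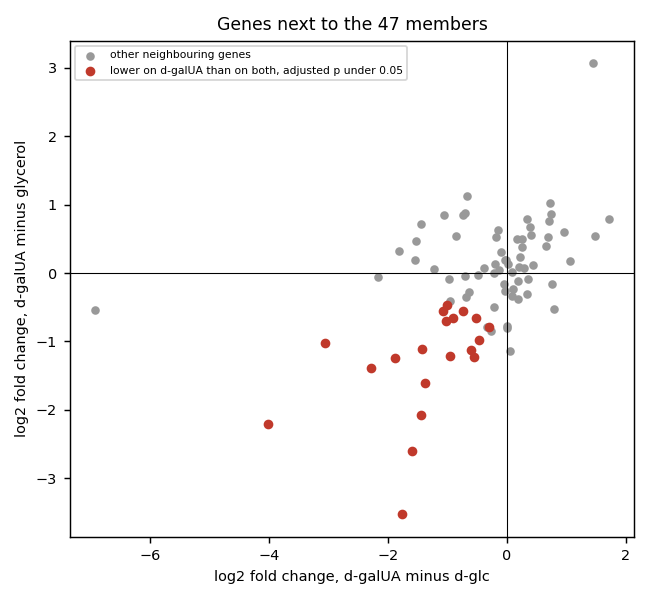
log2 fold change of d-galUA against d-glc (x axis) and against glycerol (y axis) for the 85 tested genes next to a member, 1 point per gene. Red marks the 20 genes that limma called lower on d-galUA than on both, among them RTO4_8873 farthest toward lower values against d-glc and RTO4_16348 against glycerol.

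The 20 neighbors lower on both flank 15 members. Around 5 members the genes on both sides were lower, namely RTO4_8872, RTO4_13915, RTO4_16105, RTO4_16349 and RTO4_9987, which were picked out after their values were seen. RTO4_16106 overlaps RTO4_16105 by 276 bp and RTO4_9986 overlaps RTO4_9987 by 416 bp, so reads may be shared there. Beside RTO4_9987, a gene with mean FPKM of 3.02 (d-galUA), 14.2 (d-glc) and 16.0 (glycerol), RTO4_9986 had a log2 fold change of -1.21 against glycerol (SE 0.10, adjusted p = 5.97e-06 by limma) and RTO4_9988 one of -0.65 (SE 0.13, adjusted p = 0.00233). Beside RTO4_16105, RTO4_16104 had a mean FPKM of 264 (d-galUA), 534 (d-glc) and 365 (glycerol), a smaller difference than the 28-fold one of RTO4_16105.

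Other neighbors had a pattern unlike that of the member, of which the pair farthest out was picked after its values were seen. RTO4_15936 of the set (scaffold 8, minus strand, 586699 to 589279) had 3.67, 3.72 and 3.86 FPKM on d-galUA, 27.6, 31.6 and 31.2 on d-glc, 24.9 and 25.1 in glycerol replicates 1 and 2, and 26.3 in the library labelled d-glc 4. RTO4_15937, 1410 bp away on the plus strand, is listed at 0 in all d-galUA libraries and had 96.6, 167 and 106 FPKM on d-glc, 1.00 and 0 in glycerol replicates 1 and 2, and 0.528 in the library labelled d-glc 4. It was thus nearly confined to d-glc in these 9 libraries. RTO4_11659 of the set (scaffold 17, minus strand, 308800 to 310545) had means of 10.8 ± 1.08 FPKM on d-galUA, 71.6 ± 11.9 on d-glc and 111 ± 15.2 with glycerol (SD, n = 3 libraries each). RTO4_11660, 366 bp away on the same strand, went the other way, with 239, 262 and 303 FPKM on d-galUA, 68.5, 105 and 127 on d-glc, 30.7 and 29.6 in glycerol replicates 1 and 2, and 32.6 in the library labelled d-glc 4, and no overlap between the groups. By limma RTO4_11660 was higher on d-galUA, with a log2 fold change of 3.07 against glycerol (SE 0.19, adjusted p = 6.49e-07) and 1.45 against d-glc (SE 0.19, adjusted p = 0.000138).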

How the data were processed

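Per the paper's methods and the submitters' processing notes, single-end mRNA reads of 50 bp were aligned with HISAT2 2.1.0, and StringTie 1.3.3b gave abundances for the version 4 gene models. The deposited FPKM is relative to gene length and mapped reads. The TPM deposited beside it is scaled to one total per library, and the deposited coverage is a gene's mean read depth. Use of strand and treatment of reads matching several genes are not given in the sources used here, so overlapping genes and near-identical copies are uncertain. Depth was computed from coverage and FPKM. The files hold no counts, so no count test was run. The p-values set the difference between groups against the spread between libraries of a group, which limma shares over genes. By the paper's methods a single starter culture seeded the triplicates, so that spread is among cultures from the same starter.

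The library labelled d-glc 4 was placed with glycerol because the means of the paper's gene table are those of that set of libraries, with a median difference of 5.95e-05% against 9.79% for the next set. Groups as labelled, and without that library, were alternatives. log2(FPKM + 1) was fitted with limma 3.58.1 (R 4.3.3), all 9 libraries in 1 fit, with a mean-variance trend, on models above 0 in any library, and Benjamini-Hochberg adjustment. The pseudocount understates fold changes of low genes. The fit was tested on simulated data. Summaries used Python 3.11.15, numpy 2.4.6 and pandas 2.3.3, and figures with matplotlib 3.10.9.

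The members and lists were chosen with earlier results of these data known. Named were the genes with an ortholog in the paper's gene table and RTO4_11147, the 10 members with the largest ratio on (FPKM + 1), the 10 most abundant on d-glc and glycerol, adjacent members, 3 genes on either side of the 3-fold limit, the 5 highest and 5 lowest in glycerol against d-glc, and members listed at 0. Also named were the 3 neighbors with the most negative mean log2 fold change among those called lower on d-galUA than on both. Alternatives covered the limits of the rule, pseudocount, filter, trend, TPM, median-of-ratios scaling, grouping, a block for the replicate number, and fits without each library. The gene table used here holds 1999 genes. The reference at hand is of another strain and matched no gene, so no sequence is given.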

Additional observations from a re-analysis of the deposited data

Results flagged for a closer look

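In RTO4_14618, RTO4_14307 and RTO4_9885, 1 of the 4 libraries labelled d-glc stood far from the other 3. The gap was larger than Dixon's 95% critical share of the whole range, which chance gives in about 1 in 20 groups of 4. The check was made in the 47 genes only, so no share of all genes stands beside it, and nothing is read from how many were flagged. RTO4_14618 had 33.7 FPKM in the library labelled d-glc 4 and 16.7 to 18.0 in the others (gap 0.921 of the range), and RTO4_14307 had 98.7 FPKM there and 64.0 to 68.5 in the others (gap 0.868). That library is placed with glycerol here. Glycerol replicates 1 and 2 had 31.6 and 29.4 FPKM for RTO4_14618, and 94.9 and 79.8 for RTO4_14307. RTO4_9885 had 197 FPKM in d-glc replicate 1 and 259 to 264 in the others (gap 0.925). The groups of 3 d-galUA and 2 glycerol libraries were too small for this check.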

How the results depend on the processing

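The count of 47 genes became 119 at a 2-fold limit and 22 at a 5-fold limit, and 71 with groups as labelled. Of these 71, 46 were in the set, and of the 25 added genes 19 had a glycerol-group mean at least 2-fold the d-glc one. Leaving out each library in turn gave 43 to 51 genes, with 43 to 46 shared with the set. The other limits gave 35 to 55 genes.

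With groups as labelled, limma called 0 of the 47 genes higher and 0 lower on glycerol than on d-glc (at an unadjusted p under 0.05, 3 and 5, beside 26.5% of all genes in either direction), where 1 and 0 of all 8479 genes were called, and 19 neighbors below d-glc on d-galUA and 17 below glycerol. With a replicate block, 4 of the 47 genes were higher and 9 lower on glycerol, beside 20.6% and 22.5% of all genes. That fit is close to leaving out the library labelled d-glc 4, since no other library shares its replicate number. The correlation of deviations of same-numbered libraries was -0.137 to 0.196. In groups this small, such values cannot show whether the numbers pair the cultures. Without the library labelled d-glc 4, 5 of the 47 genes were called higher and 11 lower on glycerol, beside 22.5% and 24.7% of all genes. In that fit all 47 were called lower on d-galUA than on either, beside 20.5% of all genes against glycerol and 25.2% against d-glc. Of the neighbors, 37 were below d-glc on d-galUA and 29 below glycerol, beside the same shares. Shares of all genes were not worked out for the fits without another library, so their counts are left out.

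With groups as labelled, adjusted p for d-galUA against d-glc was 0.0686 for RTO4_11147 by limma. RTO4_11260 lost its call against d-glc there, and against glycerol in 5 fits without 1 library. Direction changed only between glycerol and d-glc among the named genes, in 5 genes near 0 or with a listed 0. The log2 fold change of RTO4_11260, -1.77, became 1.69 as labelled and 0.23 with the block, and that of RTO4_16344, 0.06, became -0.11 as labelled. Leaving out each library gave -2.84 to 0.24 for RTO4_11260, -0.0415 to 0.17 for RTO4_16344, -0.22 to 0.34 for RTO4_16105, -0.0424 to 0.19 for RTO4_9885 and -0.12 to 0.12 for RTO4_15733. Depth limits RTO4_11923, with at most 24.0 d-galUA reads.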
